A study of Mus musculus with 8 samples.

Results

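The kinetochore and centromere assembly genes encode the proteins that mark the centromere of each chromosome and tie it to the spindle. They were taken as 42 named genes that build centromeric chromatin, the inner and outer plates of the kinetochore, its corona, the checkpoint proteins that sit on it, the guards of centromeric cohesion and the chromosomal passenger complex. All 42 were found on the array, through probe accessions matched to RefSeq gene symbols. Of these, 41 could be tested, out of 17084 features tested in all. RNA was measured in cultured skin fibroblasts of newborn C57BL/6 mice after transfection with a miR-127-3p mimic (samples 2, 4, 5 and 7) or with control oligonucleotides (samples 1, 3, 6 and 8), each on its own single-dye array, and samples are numbered as in their titles. The treatment label of control samples 3 and 6 names both kinds of oligonucleotide, and their titles put them among the controls; 37 of the 41 tested genes fell without either one of them. Both groups were transfected, and no untransfected cells were analysed here. The cells were dermal isolates in primary culture and not a clonal line, and the sources used here do not say whether the samples of a group came from separate cultures, so p-values measure the spread between these samples, which may be technical.

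The kinetochore is built outwards from nucleosomes that carry CENP-A, a variant of histone H3 placed at centromeres by its chaperone HJURP with the Mis18 proteins. A network of CENP proteins binds this chromatin and forms the inner plate, on which the Mis12, Knl1 and Ndc80 complexes assemble the outer plate that holds microtubules. In mammalian cells transcription of many of these genes is tied to the cell cycle and falls when cells stop dividing, and in fibroblasts their RNA is therefore commonly read as a sign of proliferation. A microRNA mimic is a synthetic duplex that acts as the mature microRNA, which pairs with target transcripts mainly through its seed.

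The sequence of the mature mouse microRNA is shown because it is the agent that separates the groups. It is taken from RefSeq (GRCm38.p6, chr12:109592888-109592909, plus strand), 5′ to 3′, with the seed (bases 2 to 8) in capitals.
miR-127-3p: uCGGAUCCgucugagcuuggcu
Whether any of the 42 transcripts carries a match to this seed was not analysed here.

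The 8 arrays had between 20741 and 23459 probes well above background, and no spot was saturated. Values below are log2 signals relative to each array's 75th percentile over all probes, so that 0 is that percentile, and a gene is represented by its brightest probe. Levels of different probes are not comparable with each other, so each gene is compared only with itself between groups. A log2 fold change is the mimic mean minus the control mean, with the standard error (SE) and adjusted p of limma's moderated test over all 17084 features (Benjamini-Hochberg, threshold 0.05, 4 arrays per group). All 10 fibroblast markers listed were tested, with a median log2 fold change of 0.04, and 2 of them rose and 2 fell. The median log2 fold change of all features was 0.02. The 8 arrays lay on 1 slide in 2 rows, row 1 with mimic 2 and 4 and control 1 and 3, row 2 with mimic 5 and 7 and control 6 and 8, and in 4 columns of 1 mimic and 1 control array each.

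Of the 41 genes tested, 37 fell with the mimic, 1 rose and 3 did not pass the test, while 18.3% of all features fell and 15.9% rose by the same rule (34.3% in either direction). In 32 genes the measured fall was at least 2-fold, a size that 3.88% of all features reached. For 1 of them, Ska2, the signal with the mimic was not above background, and only a fall of at least 1.30-fold is shown. The 5 smaller falls were those of Cenpo, Cenpc1, Mis12, Bub3 and Mad1l1. The median log2 fold change of the 41 genes was -1.79. Under another background correction, normexp, Hjurp, Dsn1, Cenps and Ska2 fell less than 2-fold. Their log2 fold changes with it were -0.80, -0.83, -0.97 and -0.46. In RNA from whole cultures, fewer dividing cells and less of these transcripts per cell cannot be told apart. In 37 genes every mimic array lay below every control array, as in 19.1% of all features, and in none did every mimic array lie above every control array (15.1% of all features). Ska2 and Sgo2a passed the filter on background through the control arrays alone and so had to be lower with the mimic. Of the other 39 tested genes, 35 fell. Cenpf, whose product joins the corona in mitosis, was not well above background on any of the 8 arrays and has no value here.

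**Figure D1:**
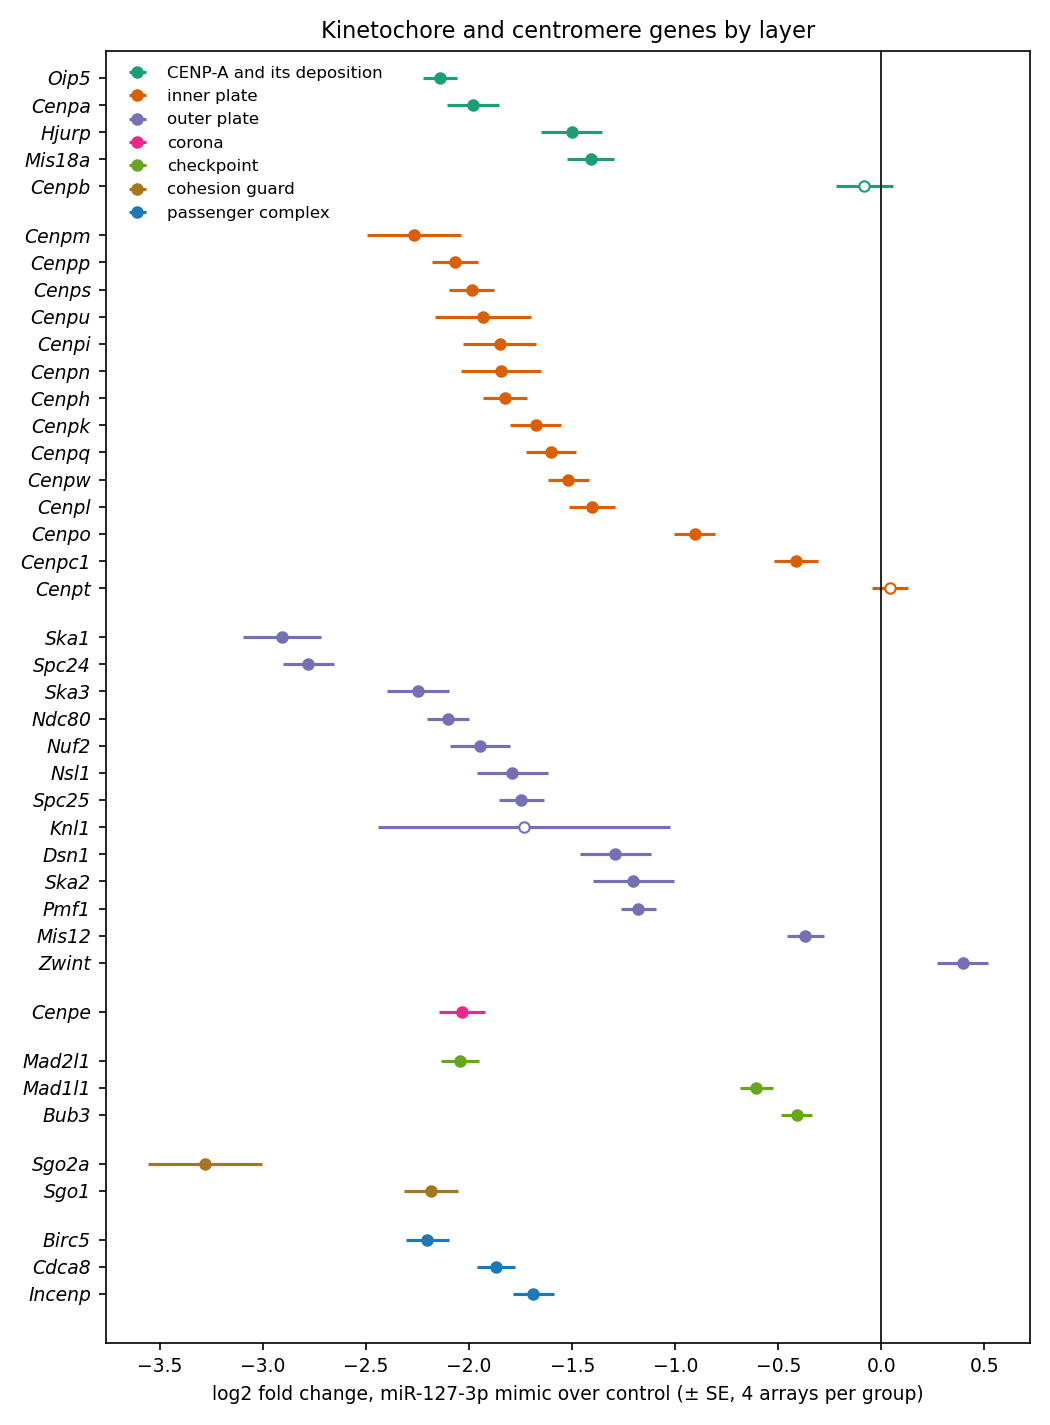
Log2 fold change (mimic over control) with its SE for the 41 tested genes, by layer, 4 arrays per group. Filled points passed the test and open points did not. Most genes lie between -1 and -3, with Cenpb, Cenpt and Zwint near or above 0.

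The genes that mark the centromere and load CENP-A were lower with the mimic, apart from Cenpb. Cenpa, which encodes the centromeric histone itself, measured 1.70, 1.66, 2.07 and 1.47 on the mimic arrays, against 3.71, 3.65, 3.81 and 3.66 on the control arrays. The groups lay far apart, with mimic 5 the highest of the mimic arrays (log2 fold change -1.98, SE 0.13, adjusted p = 2.3e-05). Oip5, also called Mis18-beta and part of the complex that prepares centromeres for new CENP-A, averaged -1.36 ± 0.11 with the mimic and 0.78 ± 0.08 in controls (SD, n = 4 each) with a log2 fold change of -2.14, and its partner Mis18a had one of -1.41, the difference between them not being tested. Hjurp, the chaperone, measured -1.11, -1.08, -1.62 and -0.91 on the mimic arrays, against 0.32, 0.19, 0.42 and 0.37 on the control arrays. Its arrays did not overlap (log2 fold change -1.50, SE 0.15, adjusted p = 0.000167), and its other 2 probes, well above background on 3 and 2 of the mimic arrays, gave log2 fold changes of -1.56 and -0.88. Cenpb encodes a protein that binds a repeated DNA element of centromeres and is known to be dispensable in mice. It measured 3.23, 3.39, 3.72 and 3.56 on the mimic arrays, against 3.55, 3.84, 3.49 and 3.35 on the control arrays. The groups overlapped, and the log2 fold change of -0.08 had a 95% interval of -0.40 to 0.23 (adjusted p = 0.681). Its other probe, well above background on all 8 arrays, gave a log2 fold change of -0.41, which did not pass either (adjusted p = 0.267 over probes).

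Of the 14 inner plate genes, 13 fell and none rose, with log2 fold changes between -2.27 and 0.04 and a median of -1.75. The 4 genes of the subcomplex of CENP-H, CENP-I, CENP-K and CENP-M fell together: Cenpm had a log2 fold change of -2.27, Cenpi of -1.85, Cenph of -1.83 and Cenpk of -1.68. Cenpm was well above background on 2 of 4 mimic arrays and on all controls. Cenpl and Cenpn, whose products form a pair that reads the CENP-A nucleosome, had log2 fold changes of -1.41 and -1.85. Cenpn measured -0.32, -0.63, -1.30 and -0.77 on the mimic arrays, against 1.21, 0.83, 1.17 and 1.14 on the control arrays. Mimic 5 was its lowest array, whereas the same array was the highest mimic array for Cenpa.

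The subcomplex of CENP-O, CENP-P, CENP-Q and CENP-U is needed in mammalian cells for stable attachment and brings the kinase Plk1 to the kinetochore. All 4 of its genes fell. Cenpp measured -0.80, -0.78, -0.97 and -0.58 on the mimic arrays, against 1.35, 1.07, 1.42 and 1.32 on the control arrays, with no overlap (log2 fold change -2.07, SE 0.11, adjusted p = 1.28e-05). Cenpo, with the smallest fold change of the 4, averaged 0.35 ± 0.16 with the mimic and 1.26 ± 0.09 in controls (log2 fold change -0.91, adjusted p = 0.00031). Cenpu and Cenpq lay between them, with log2 fold changes of -1.93 and -1.60.

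Among the histone-fold proteins of the inner plate, Cenps and Cenpw fell (-1.99 and -1.52), but Cenpt, whose product pairs with CENP-W and reaches out to the Ndc80 complex, did not pass the test. Cenpt measured 2.40, 2.54, 2.31 and 2.21 on the mimic arrays, against 2.32, 2.36, 2.29 and 2.32 on the control arrays. The control values lay within the range of the mimic values, and the log2 fold change of 0.04 had a 95% interval of -0.15 to 0.24 (adjusted p = 0.73). Cenpc1 encodes CENP-C, the other link between centromeric chromatin and the outer plate. It measured 0.89, 0.63, 0.94 and 0.57 on the mimic arrays, against 1.17, 1.11, 1.11 and 1.30 on the control arrays. Its groups did not overlap, but the fall was small (log2 fold change -0.41, SE 0.11, adjusted p = 0.0169), and the call was lost without mimic 4 (adjusted p = 0.0521), when the slide column entered the fit (adjusted p = 0.0585), with no filter on dim probes (adjusted p = 0.0752) and within either slide row alone.

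**Figure D2:**
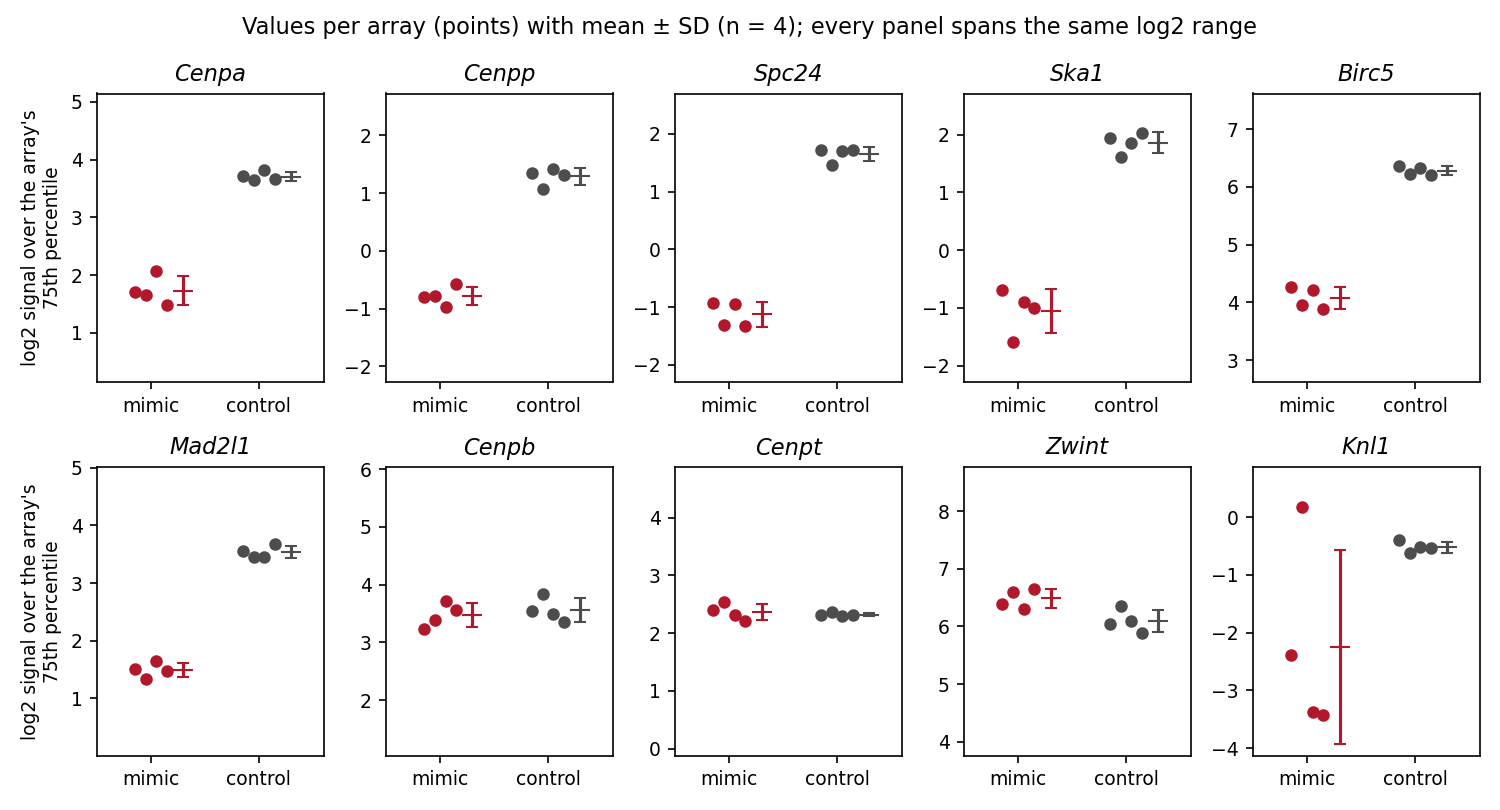
Log2 signal relative to the array's 75th percentile for 10 genes, one point per array, with mean ± SD (n = 4) beside the points. Mimic arrays are left of control arrays and every panel spans the same range. The first 6 genes have no overlap between groups, Cenpb, Cenpt and Zwint overlap, and in Knl1 mimic 4 lies above the controls.

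Of the 13 outer plate genes, 11 fell and 1 rose, with a median log2 fold change of -1.75. The Ndc80 complex, a rod whose one end binds microtubules through Ndc80 and Nuf2 and whose other end anchors through Spc24 and Spc25, was lower in all 4 genes. Spc24 measured -0.94, -1.30, -0.95 and -1.33 on the mimic arrays, against 1.71, 1.46, 1.70 and 1.73 on the control arrays, with control 3 below the other controls and still far above every mimic array (log2 fold change -2.78, SE 0.12, adjusted p = 1.19e-05). This is a 6.87-fold lower signal with the mimic. Ndc80 averaged -0.89 ± 0.15 with the mimic and 1.21 ± 0.13 in controls (log2 fold change -2.10, SE 0.10, adjusted p = 1.28e-05). Nuf2 and Spc25 had log2 fold changes of -1.95 and -1.75. The within-array log2 ratio of Spc24 to Ndc80 was lower with the mimic by a mean of -0.68 (exact permutation p = 0.0286, adjusted p = 0.0367, n = 4 per group).

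The Mis12 complex, which bridges the inner plate and the Ndc80 complex, was lower in all 4 genes. Nsl1 had a log2 fold change of -1.79, Dsn1 of -1.29 and Pmf1 of -1.18, each with no overlap between groups. Mis12, the gene that gives the complex its name, measured -0.42, -0.42, -0.27 and -0.40 on the mimic arrays, against -0.17, 0.09, 0.09 and -0.06 on the control arrays. The groups lay close but apart (log2 fold change -0.37, SE 0.09, adjusted p = 0.0129). Mis12 did not pass when the slide column entered the fit (adjusted p = 0.0658), when no filter on dim probes was set (adjusted p = 0.0708) or within either slide row alone. The within-array log2 ratio of Nuf2 to Mis12 was lower with the mimic by a mean of -1.58 (exact permutation p = 0.0286, adjusted p = 0.0367). This pair was chosen with earlier results of these data known, so its p is no independent support for a difference.

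Ska1 and Ska3 encode parts of a complex that helps the Ndc80 complex hold on to shortening microtubules. Ska1 measured -0.70, -1.60, -0.90 and -1.01 on the mimic arrays, against 1.95, 1.61, 1.85 and 2.02 on the control arrays. Mimic 4 was its lowest array, and every mimic array lay below every control (log2 fold change -2.91, SE 0.19, adjusted p = 2.5e-05). Ska3 had a log2 fold change of -2.25 (SE 0.15). Ska2, the remaining subunit, was well above background on no mimic array and on all 4 control arrays, and was at least 1.30-fold lower with the mimic, its measured means being -3.31 with the mimic and -2.11 in controls. For such a bound the control mean is divided by the mimic mean after each mimic array's value is raised, where lower, to the dimmest signal that counted as above background on it. The adjusted p of Ska2 was 0.00221, but its direction was fixed by the filter. The measured ratio of Ska1 to Ska2 differed between groups by -1.71, and as Ska2 was not above background with the mimic this is no test of which fell further.

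Knl1 and Zwint, whose products stand together at the outer plate and recruit checkpoint proteins, were the outer plate genes that did not fall in the test. Knl1 measured -2.39, 0.17, -3.37 and -3.43 on the mimic arrays, against -0.40, -0.63, -0.52 and -0.54 on the control arrays. Mimic 2, 5 and 7 lay below all controls, while mimic 4 lay above them, so the groups overlapped and the difference did not pass the test (log2 fold change -1.73, SE 0.71, adjusted p = 0.0917). Without mimic 4 the log2 fold change was -2.54 (adjusted p = 0.000498), with normexp it was -0.71 (adjusted p = 0.00316), and within slide row 2, which does not hold mimic 4, it was -2.87 (adjusted p = 0.0174). Only mimic 2 and 4 of the mimic arrays were well above background for this probe. Zwint measured 6.40, 6.60, 6.31 and 6.64 on the mimic arrays, against 6.04, 6.35, 6.10 and 5.88 on the control arrays. The mimic mean was the higher one and the groups overlapped, control 3 lying within the mimic range (log2 fold change 0.39, SE 0.12, adjusted p = 0.0365). Its other probe, which stands for another transcript accession, gave a log2 fold change of -0.16 (adjusted p = 0.327 over probes). Zwint no longer passed under 11 of the 20 alternatives: when mimic 2, 4 or 7 or control 1, 6 or 8 was left out, and, for example, with the mean over both probes, which gave 0.12 (adjusted p = 0.437).

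At the corona, Cenpe, a kinesin motor that carries chromosomes to the spindle equator, measured 3.07, 2.86, 3.21 and 2.82 on the mimic arrays, against 5.19, 4.93, 5.02 and 4.97 on the control arrays. The groups were widely separated (log2 fold change -2.04, SE 0.11, adjusted p = 1.28e-05). The 3 checkpoint genes all fell, but not alike. Mad2l1, whose product holds back anaphase at unattached kinetochores, measured 1.50, 1.34, 1.65 and 1.48 on the mimic arrays, against 3.55, 3.46, 3.45 and 3.68 on the control arrays (log2 fold change -2.04, SE 0.09, adjusted p = 1.21e-05). Mad1l1, the partner that anchors it, had a log2 fold change of -0.61, and Bub3, which carries Bub1 to the kinetochore, of -0.41 (adjusted p = 0.000746 and 0.00336). Bub3 measured 4.38, 4.50, 4.38 and 4.39 on the mimic arrays, against 4.73, 4.87, 4.87 and 4.83 on the control arrays, with mimic 4 the highest of its group and below every control. The ratio of Mad2l1 to Bub3 was lower on every mimic array than on every control array, with a mean log2 difference of -1.63 (exact permutation p = 0.0286, adjusted p = 0.0367). The calls of Mad1l1 and Bub3 were lost within either slide row alone, where each group has 2 arrays (adjusted p = 0.0502 and 0.0672 for Mad1l1, 0.180 and 0.0849 for Bub3).

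Shugoshins protect the cohesin that holds sister centromeres together. Sgo1 measured 1.46, 1.07, 1.25 and 1.02 on the mimic arrays, against 3.44, 3.17, 3.33 and 3.61 on the control arrays, without overlap (log2 fold change -2.19, SE 0.13, adjusted p = 1.84e-05). Sgo2a measured -3.10, -3.67, -4.23 and -4.54 on the mimic arrays, against -0.55, -0.77, -0.58 and -0.51 on the control arrays. It was well above background on every control array and on no mimic array, and with the processed signal was at least 3.68-fold lower with the mimic (adjusted p = 7.77e-05, with the direction fixed by the filter). With normexp its log2 fold change was -1.23, a smaller fall than that bound. Which of the pair fell further cannot be read from these signals: the ratio of Sgo2a to Sgo1 differed by -1.10 with the processed signal and by 0.77, in the opposite direction, with normexp background correction.

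The chromosomal passenger complex corrects faulty attachments and joins the kinase Aurora B to Incenp, survivin (Birc5) and borealin (Cdca8). Its 3 other genes fell without overlap between groups. Birc5 measured 4.26, 3.96, 4.21 and 3.88 on the mimic arrays, against 6.36, 6.22, 6.33 and 6.21 on the control arrays (log2 fold change -2.20, SE 0.11, adjusted p = 1.28e-05), and its other 2 probes gave -2.41 and -2.30. Cdca8 averaged 3.24 ± 0.15 with the mimic and 5.11 ± 0.07 in controls and Incenp 3.42 ± 0.14 with the mimic and 5.11 ± 0.13 in controls (SD, n = 4 each), with log2 fold changes of -1.87 and -1.69. The within-array log2 ratio of Birc5 to Incenp was lower on the mimic arrays than on the control arrays by a mean of -0.51 (exact permutation p = 0.0286, adjusted p = 0.0367). The probe of the kinase gene Aurkb was not well above background on any array.

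**Figure D3:**
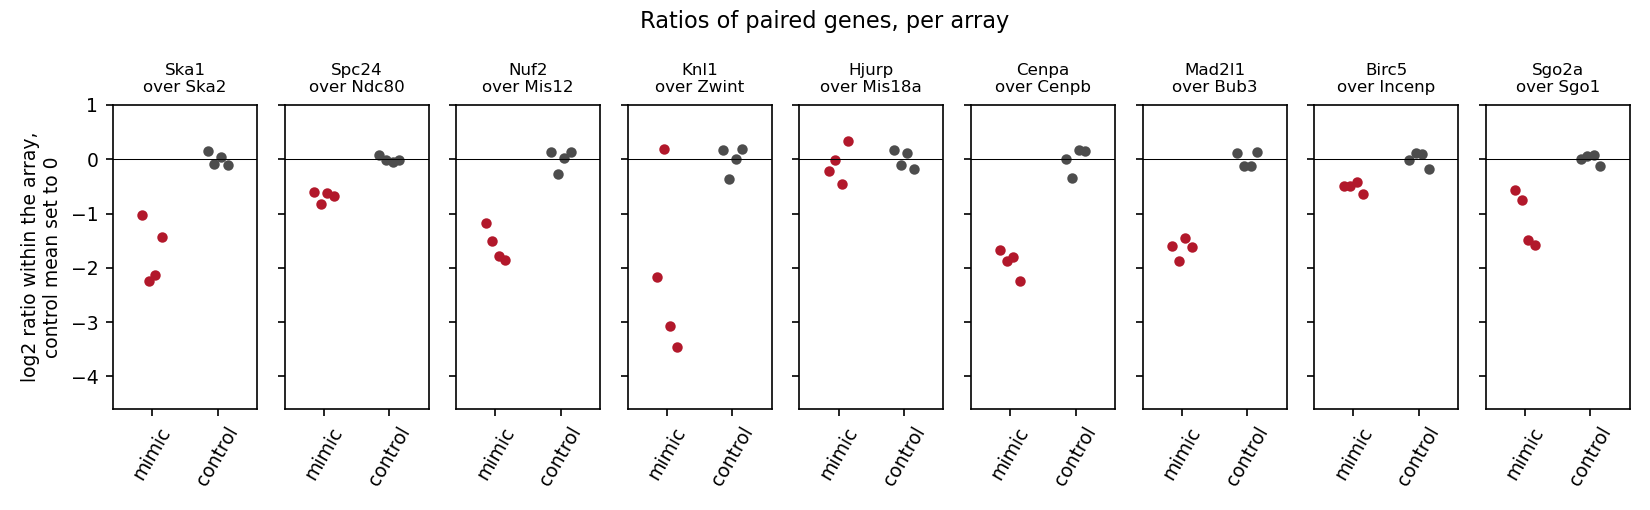
Log2 ratio of 2 genes within each array, with the control mean of each pair set to 0, for 9 pairs, mimic arrays left of control arrays. In 7 pairs no mimic array reaches the controls, 2 of them with a gene at background on all mimic arrays (Ska2, Sgo2a); Hjurp over Mis18a overlaps throughout, and Knl1 over Zwint overlaps through mimic 4.

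In all, 9 pairs of genes were compared by the exact permutation test over the 70 assignments of 4 and 4 arrays, two-sided and adjusted over the 9. The pairs were chosen with earlier results of these data known, so a small p here is no independent support for a difference. The smallest p these assignments give is 0.0286. Both genes were above background on at least 1 mimic array in 7 pairs, and 5 of these reached that p. The other 2 pairs, with Ska2 and Sgo2a, are given as values only, although they entered the adjustment. Beside those given above, Cenpa and Cenpb differed by -1.90. The ratio of Hjurp to Mis18a differed by -0.09 (exact permutation p = 0.657, adjusted p = 0.657), with an exact 97.1% interval of -0.62 to 0.52. That of Knl1 to Zwint differed by -2.13 (exact permutation p = 0.114, adjusted p = 0.129), with an interval of -3.65 to 0.54.

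By layer, without a test between layers, the median log2 fold change of tested genes was -1.50 for CENP-A and its deposition (5 genes, 4 lower), -1.75 for the inner plate (14 genes, 13 lower), -1.75 for the outer plate (13 genes, 11 lower), -2.04 for the corona (1 gene, Cenpe), -0.61 for the checkpoint (3 genes, 3 lower), -2.73 for the cohesion guard (2 genes, 2 lower, with Sgo2a at background) and -1.87 for the passenger complex (3 genes, 3 lower). These layer medians are for the processed signal, where the checkpoint had the smallest and the cohesion guard the largest, each over few genes. The place of the cohesion guard depended on the background correction of Sgo2a, whose log2 fold change was -1.23 with normexp. Its median fall was then smaller than those of the corona and the passenger complex, while the checkpoint still had the smallest. The outer plate alone ran between -2.91 for Ska1 and 0.39 for Zwint. Taken per array, the median deviation of the 41 genes from their control means was -1.56, -1.77, -1.75 and -1.88 for mimic 2, 4, 5 and 7, against 0.03, -0.11, -0.01 and 0.08 for control 1, 3, 6 and 8. Mimic 2 had the smallest and mimic 7 the largest fall, and control 3 was the lowest control.

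**Figure D4:**
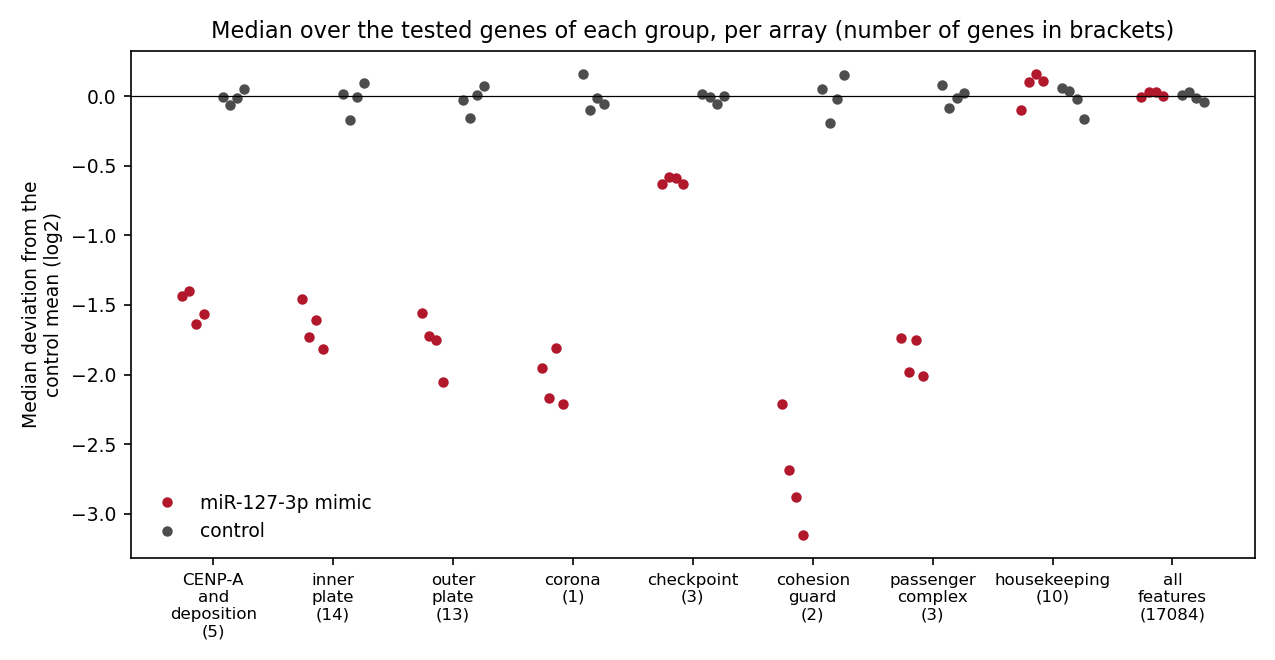
Median, over the tested genes of each layer, of the deviation from the control mean on each array (log2), with 4 mimic arrays left of 4 control arrays. Every mimic array lies below every control array in each layer, while housekeeping genes and all 17084 features stay near 0.

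Within slide rows each group has 2 arrays. In row 1, 31 of the 41 genes fell (median -1.68), where 1758 of all 17084 features were called in either direction. In row 2, 33 did (median -1.89), where 1616 of all features were called. Falls of dim genes were smaller when background was corrected by normexp with an offset of 50. The median was then -1.19, all 41 directions were kept, and 38 genes fell, Knl1 being the one added. Over the 17 settings that include normexp, 4008 to 7071 of all features were called in either direction. The change was large for Sgo2a (-3.28 with the processed signal and -1.23 with normexp) and small for bright genes such as Birc5 (-2.20 in both).

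**Figure D5:**
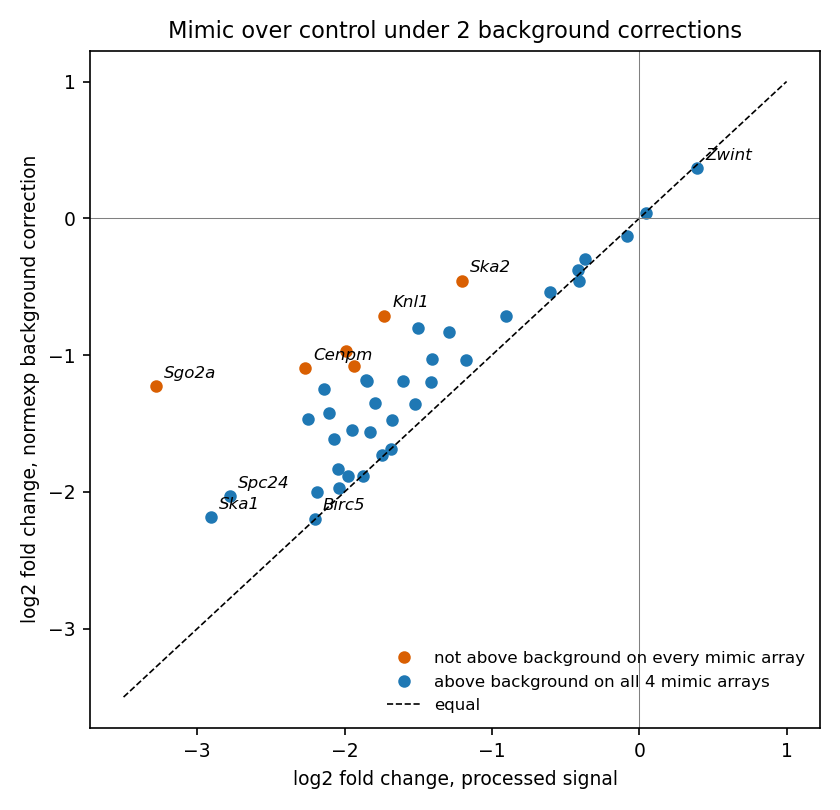
Log2 fold change (mimic over control) of each tested gene with the processed signal (horizontal) and with normexp background correction (vertical); the dashed line marks equal values. The 6 genes that were not above background on every mimic array lie well above the line, and bright genes such as Birc5 lie on it.

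Another 29 kinetochore and centromere genes that are not among the 42 were listed as well, and 26 were tested. Of these, 18 fell and 1 rose (median -1.21). Spdl1 and Ttk passed the filter through the control arrays alone and so had to be lower, and of the other 24 genes 16 fell. The checkpoint kinases Bub1 and Bub1b had log2 fold changes of -2.31 and -2.27, the mitotic kinase Plk1 of -2.15 and Nasp, a histone chaperone, of -1.43. The one that rose was Ndel1 (0.33, adjusted p = 0.0302), a dynein regulator that also works outside mitosis. Ndel1, Spdl1, Ttk, Cenpx and Itgb3bp were named after their values were seen. Of 17 proliferation genes outside the kinetochore, all 17 fell (median -1.82), among them Ccna2 (-2.37), Ccnb1 (-2.29), Mybl2 (-2.03) and Tk1 (-1.92). Their array medians were -1.62, -1.84, -1.70 and -1.99 for mimic 2, 4, 5 and 7, and whether the kinetochore genes fell more or less than these was not tested. Of 10 housekeeping genes, 1 fell and 1 rose (median 0.07).

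Markers of macrophages and leukocytes moved the other way in the same arrays. Of 9 tested of 10 listed, 8 rose (median 1.18). The summed signal of the list, in units of the array's 75th percentile, lay between 63.9 and 74.9 on mimic arrays. On control arrays it lay between 36.1 and 45.4. That sum adds probes of unlike brightness and mostly follows the brightest, that of Itgam, named after its values were seen. Itgam averaged 5.44 with the mimic and 4.93 in controls (log2 fold change 0.51), and its groups overlapped. The pan-leukocyte marker Ptprc was not well above background on any array. Their array medians were 1.35, 1.54, 0.61 and 1.33 for mimic 2, 4, 5 and 7. Their part in the falls was not tested. Of 5 tested keratinocyte markers 1 rose, of 5 melanocyte and Schwann markers 1 rose, and 1 endothelial and 3 muscle markers gave no call. The summed signals of these lists overlapped between the groups.

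The promoters of these genes were examined because most of the genes fell together. RefSeq windows of 300 bases (250 before and 50 after the annotated start, GRCm38.p6) were available for 38 of the 42 genes, 43 windows in all. The letters searched, on both strands, were TTTGAA with its variant form TTCGAA (the cell cycle homology region, bound by the complexes that repress or activate late cell cycle genes), CCAAT (the box bound by NF-Y), GGCGGG (a GC box) and the E2F site, in the form TTTGGCG, in the form TTTCGCG and in the form TTTCCCG. The last of these can overlap GGCGGG on the opposite strand. A homology region stood in 18 of the 43 windows (41.9%), against 19.2% of all 32851 windows. CCAAT stood in 28 (65.1%, against 37.4%), GGCGGG in 29 (67.4%, against 35.3%) and an E2F form in 9 (20.9%, against 5.58%). A homology region together with CCAAT was present in 14 windows (32.6%, against 7.52%). The windows of Bub3 overlap, and the homology region and CCAAT boxes that they share are counted in each. A match is a run of letters and not a bound site, all windows include genes that fibroblasts do not use, and a window without a match says nothing about the factor.

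Windows of 3 genes that fell, one from each of the centromere, outer plate and passenger layers, are shown with that of Cenpt, which did not pass the test, so that the motifs can be read in place. All 3 hold both a homology region and CCAAT, as did 13 of the 38 windows of genes that fell, so they do not stand for the rest. Capitals mark the homology region and CCAAT on either strand (ATTGG being the CCAAT box read from the opposite strand), and sequences run 5′ to 3′ along the gene.
Cenpa (chr5:30666636-30666935, plus strand): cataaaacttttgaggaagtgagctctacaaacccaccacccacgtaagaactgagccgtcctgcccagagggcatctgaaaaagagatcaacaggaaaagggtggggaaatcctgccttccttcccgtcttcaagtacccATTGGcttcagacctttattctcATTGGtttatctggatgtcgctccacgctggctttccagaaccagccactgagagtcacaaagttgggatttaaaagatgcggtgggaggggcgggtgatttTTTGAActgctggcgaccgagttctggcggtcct
Spc25 (chr2:69206164-69206463, minus strand): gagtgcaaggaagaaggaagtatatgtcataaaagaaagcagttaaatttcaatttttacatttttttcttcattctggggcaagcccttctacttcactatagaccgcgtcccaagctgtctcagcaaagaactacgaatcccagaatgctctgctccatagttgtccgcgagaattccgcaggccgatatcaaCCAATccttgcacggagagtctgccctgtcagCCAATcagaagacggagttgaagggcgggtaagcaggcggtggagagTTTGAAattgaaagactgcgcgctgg
Cdca8 (chr4:124936868-124937167, minus strand): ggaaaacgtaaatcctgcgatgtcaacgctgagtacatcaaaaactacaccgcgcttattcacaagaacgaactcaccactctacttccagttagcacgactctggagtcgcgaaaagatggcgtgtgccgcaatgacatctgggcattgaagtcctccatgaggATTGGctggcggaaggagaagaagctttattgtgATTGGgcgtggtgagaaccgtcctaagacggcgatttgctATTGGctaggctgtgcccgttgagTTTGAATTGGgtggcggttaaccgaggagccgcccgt
Cenpt (chr8:105851959-105852258, minus strand): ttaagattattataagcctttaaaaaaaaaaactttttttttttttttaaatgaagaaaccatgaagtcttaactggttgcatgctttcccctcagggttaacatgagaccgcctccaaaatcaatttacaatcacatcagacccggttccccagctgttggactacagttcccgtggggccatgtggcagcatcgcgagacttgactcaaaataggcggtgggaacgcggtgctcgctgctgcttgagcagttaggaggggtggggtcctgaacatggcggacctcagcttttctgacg
In Cenpa, Spc25 and Cdca8 the CCAAT boxes stand upstream of a TTTGAA near the end of the window, and in Cdca8 that TTTGAA runs into a further ATTGG. None of these letters occurs in the window of Cenpt. Of the windows of genes that fell, 16 of 38 held a homology region and 26 held CCAAT, and of the 5 windows of other genes of the set, 2 held each. The window of Zwint held CCAAT and no homology region. That of Birc5 held neither CCAAT nor a homology region, but it held GGCGGG and the E2F form TTTCCCG.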

How the data were processed

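Skin fibroblasts transfected with a miR-127-3p mimic (n = 4) or control oligonucleotides (n = 4) were grouped by sample title; the treatment label of 2 control samples names both oligonucleotides. Per the file headers, the deposited intensity values were made by the authors with Agilent Feature Extraction 11.5.1.1 in 1 colour, background-subtracted and detrended within the array; the array design was annotated on mm9. Detection, saturation and outlier flags, given as other 0 or 1 values per spot, were deposited too. The deposited value table holds log2 values: for probes with 1 spot, each column differed from the log2 processed intensity by 1 constant per array, and its 75th percentile lay near 0. GeneSpring 14.9.1 was used by the authors, per the series' design text.

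Control and outlier spots were dropped, spots of a probe averaged (55681 probes) and each array's 75th percentile subtracted. Accessions without versions were matched to RefSeq symbols (GRCm38.p6, names only) for 28331 probes. A probe was tested if all its spots were well above background on at least 4 of 8 arrays, and the brightest probe stood for a gene. The two-sided test was limma's (version 3.58.1, R 4.3.3; lmFit with eBayes). The fit was tested on simulated data. With 4 arrays per group, their number limits the precision. Alternatives were normexp (offset 50), quantile normalization, the value table, 2 other filters, the mean of probes, a trended robust variance, array weights, slide row or column as a block, each row alone, and leaving out each array. Normexp was planned on mean signals; the median signals were used, as the files hold these. Members, lists and pairs were chosen with earlier results of these data known. Every member may be named. Of other lists, this holds for up to 4 genes with the smallest p, besides those said to be named after their values were seen.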

Additional observations from a re-analysis of the deposited data

Results flagged for a closer look

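In 82 sets of 4 arrays (41 genes in 2 groups), 3 had an array that stood apart by Dixon's test at its 95% critical value (0.829 for 4 values), and chance flags about 1 in 20 such sets. Mis12 measured -0.27 on mimic 5, the highest of its group, while the other mimic arrays lay between -0.42 and -0.40. Bub3 measured 4.50 on mimic 4, the highest of its group, with the others at 4.38 to 4.39. Spc24 measured 1.46 on control 3, the lowest of its group, with the others at 1.70 to 1.73. All 3 values lay on their own group's side of the other group.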

How the results depend on the processing

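No paired analysis was possible because the sample numbers in the titles run from 1 to 8 and none is shared by a mimic and a control sample; slide column, with 1 array of each group, was used as a block by position and is no pairing given by the labels. Over 20 alternative settings, 32 of the 41 tested genes kept their call in each one, and 9 did not (Cenpc1, Cenpu, Mis12, Dsn1, Knl1, Zwint, Ska2, Bub3 and Mad1l1). No called gene changed direction, while the fold change of Cenpb ranged from -0.38 to 0.22 and that of Cenpt from -0.04 to 0.13. The count of genes that fell was 31 in slide row 1 alone, 33 in row 2 alone, 35 with slide column as a block and 38 with normexp. With no filter on dim probes it was also 35, but of 42 genes tested. The median was -1.19 with normexp and -1.85 to -1.70 on leaving out an array. All features called in either direction numbered 5852 of 17084 tested. With no filter they numbered 3657, but of 36708 tested. In row 1 alone they numbered 1758 and in row 2 alone 1616, each of 17084. In the other 17 settings, which include normexp and slide column as a block, they numbered 4008 to 7071. On leaving out an array they numbered 4320 to 5788. The 1 gene that rose became 0 with no filter, with the mean of probes, with slide column as a block and in either row, and 0 to 1 on leaving out an array. In each row alone 1 of 3 checkpoint genes fell. With normexp, the difference between Knl1 and Zwint was -1.08 (exact permutation test, adjusted p = 0.0321) and that between Sgo2a and Sgo1 turned to 0.77; the cause was not tested. On leaving out an array these were -2.90 to -1.68 and -1.27 to -0.94, and Sgo2a was not above background on any mimic array. In row 1 and row 2 alone, where the smallest exact p is 0.333, Nuf2 and Mis12 differed by -1.27 and -1.89, and Cenpa and Cenpb by -1.61 and -2.18. Genes near background have fold changes that depend on its correction, and 6 genes were not well above it on every mimic array.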
